A study of Mus musculus with 6 samples.

Results

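Open chromatin was described at the loci of 8 genes of gluconeogenesis and ammonia production in the mouse kidney: Pck1, G6pc, Fbp1, Pcx, Glud1, Slc38a3, Slc5a12 and Ppargc1a. They are 8 of the 21938 protein-coding genes of the annotation and were chosen by name, though with earlier results of these data known. Every accessible region whose strongest summit (the point of highest signal in a peak) lay in the body of 1 of these genes or within 20 kb of it was taken as belonging to its locus. The loci held 138 of the 99359 accessible regions of the 6 libraries. Of these, 12 were promoter regions, with the strongest summit within 1 kb of an annotated start of the gene, and 126 were distal. Among the distal regions 57 lay in the body of the gene itself, and 6 lay at the start of another protein-coding gene.

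Accessibility was measured by ATAC-seq, an assay in which the enzyme Tn5 inserts adapters into DNA not covered by nucleosomes, so that sequenced fragments pile up at open sites. Male wild-type C57BL/6 mice, aged 7 weeks, were given a sham operation (Sham, 3 libraries) or had 1 kidney removed (unilateral nephrectomy, UNx, 3 libraries). After 24 h the first segment of the proximal tubule (PT-S1) was dissected by hand, and each library was made from 3 such tubule pieces. Whether the libraries of a group stem from separate mice is not stated, so p-values measure the spread between these libraries, which may in part be technical. In tissue, fewer cells with an open site and a less open site in every cell cannot be told apart.

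The proximal tubule is, with the liver, the main site of glucose synthesis in the body. It takes up lactate and glutamine, removes amino groups from glutamine and glutamate as ammonium, and passes the remaining carbon through oxaloacetate and phosphoenolpyruvate to glucose. The ammonium is secreted to carry acid into the urine while bicarbonate returns to the blood, so the same reactions serve both glucose supply and acid balance. Pyruvate carboxylase (Pcx), the cytosolic phosphoenolpyruvate carboxykinase (Pck1), fructose bisphosphatase (Fbp1) and glucose-6-phosphatase (G6pc) catalyse the steps that glycolysis cannot run backwards. Glud1 encodes glutamate dehydrogenase, Slc38a3 a glutamine transporter of the basolateral membrane, and Slc5a12 a sodium-coupled lactate transporter of the apical membrane. Ppargc1a encodes a transcriptional coactivator of mitochondrial and gluconeogenic genes.

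The data are 1 peak list per library, with no read counts, so sequencing depth is unknown. A peak was placed in its own list by a percentile rank of its −log10 q value (100 for the strongest peak, 0 for a region absent from the list) after each list was cut to its 77355 strongest peaks. A difference in this rank is given in percentile points, UNx minus Sham. The deposited lists held 77355 to 97834 peaks in Sham and 93583 to 100999 in UNx, and their median −log10 q ran from 12.1 in Sham 2 to 26.5 in UNx 3. The 6 genes taken as markers of the S1 segment were Slc5a2, Slc34a1, Lrp2, Cubn, Slc4a4 and Slc22a6. All had a promoter region in every library, with summed percentile ranks of 526 to 530 in Sham and 509 to 529 in UNx. Some markers of the later proximal segments were present too (below), so this presence does not tell S1 from them. Both collecting duct markers (Aqp2 and Avpr2) and both immune markers (Ptprc and Cd68) were absent from all 6 lists. Other cell types were not wholly absent. Both loop of Henle markers were in all lists, Umod at 65 to 66.2 in Sham and 65 to 74.2 in UNx, and Slc12a1 at 52.4 to 60.2 in Sham and 19.4 to 38.2 in UNx. Of 4 markers of the later proximal segments (S2 and S3), Slc22a7 and Atp11a were in all lists, Slc5a1 in 1 and Slc7a13 in none, with summed ranks of 125 to 160 in Sham and 80.3 to 134 in UNx. The distal tubule marker Calb1 was in all lists (54.4 to 71.4) and Slc12a3 in none. The podocyte marker Nphs1 was in 5 lists, at 12.2 to 32.6 in Sham and 0 to 47 in UNx. Of the injury markers, Havcr1 was in 1 list (Sham 3, at 34.2) and Lcn2 in none. The 3 endothelial markers together reached 16.1 to 28.5 in Sham and 0 in UNx, and of the 2 stromal markers Pdgfrb was at 0 and Col1a1 lay at 68.9 to 69.4 in Sham and 54.1 to 66.1 in UNx. The part of these differences in the results at the 8 loci was not tested.

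No region of the 8 loci passed the test between UNx and Sham. Of the 138 regions 97 were present in at least 3 of the 6 lists and were tested (12 promoter and 85 distal), and limma called 0 of them at an adjusted p under 0.05, while 0.788% of all 74781 tested regions were called. Of the 97 regions, 5 were in all 3 lists of one operation (UNx in 4, Sham in 1) and in none of the other. These met the 3-list minimum only through the group in which they were high, so they had to differ, and their values are given as a description with no test. Among the member regions found in both operations the lowest adjusted p by limma was 0.0631. An unadjusted p under 0.05 was reached by 24 regions (24.7%), beside 18.6% of all tested regions. In 30 regions (30.9%) the 3 libraries of one operation all ranked above the 3 of the other, beside 23.7% of all tested regions. UNx lay above Sham in 22 of these 30 (22.7% of 97, beside 12.0% of all tested regions) and Sham above UNx in 8 (8.25%, beside 11.7%), counts that, like the 24 above, include the 5 regions found in 1 operation only. With peaks ranked by fold enrichment, UNx lay above Sham in 4 and Sham above UNx in 12 of the 80 regions that could be followed. The matching shares of all regions by fold enrichment were not counted. Whether this balance is particular to these loci therefore cannot be told. The mean rank was higher after UNx in 70 of the 97 regions (72.2%, beside 49.9% of all tested regions), with a median difference of 4.41 points beside -0.0112 for all. By gene it ran from 6 of 10 regions at G6pc to 16 of 19 at Ppargc1a. That tilt depended on the value used for ranking: with peaks ranked by fold enrichment it was 36 of 85 regions (42.4%), beside 50% of all regions, and without UNx 3, the library with the highest −log10 q values, it was 59.8%.

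**Figure D1:**
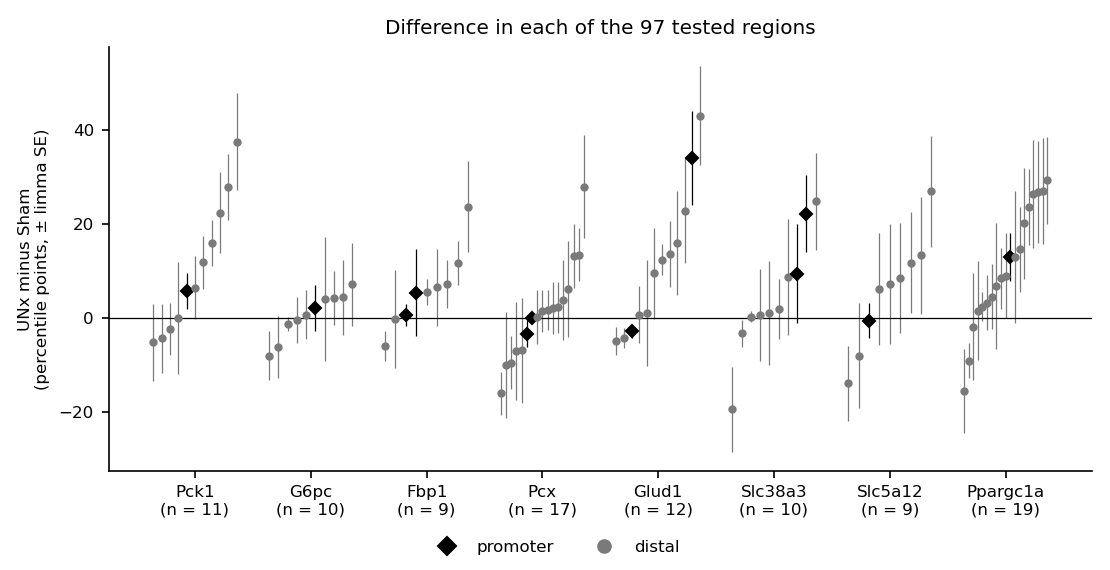
Difference in percentile rank (UNx minus Sham, y axis, percentile points, bars ± limma standard error) for each of the 97 tested regions, ordered by size within each gene (x axis, with the number of regions). Black diamonds are promoter regions and grey circles distal regions, and points lie above 0 in 70 of the 97.

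The sequences below show 3 promoters and 3 regions in which UNx ranked above Sham throughout by −log10 q, in GRCm38 and on the strand of the gene. Each is a window around the strongest summit, and the 3 promoter windows end at the last base before the annotated start. Capitals mark matches to consensus strings for transcription factor families. The first 3 are promoters with a match close to the start: Pck1 (chr2:173152869-173153047, plus strand) with the half-site of the cyclic AMP response element (CRE, TGACGT, here read on the other strand), G6pc (chr11:101367313-101367560, plus strand) with the HNF1 string GTTAATNAT, and Ppargc1a (chr5:51553923-51554092, minus strand) with the full CRE, TGACGTCA.
Pck1 promoter: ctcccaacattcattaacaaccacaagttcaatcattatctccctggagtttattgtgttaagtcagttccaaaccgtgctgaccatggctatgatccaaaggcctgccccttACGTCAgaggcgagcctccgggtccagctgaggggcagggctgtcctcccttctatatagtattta
G6pc promoter: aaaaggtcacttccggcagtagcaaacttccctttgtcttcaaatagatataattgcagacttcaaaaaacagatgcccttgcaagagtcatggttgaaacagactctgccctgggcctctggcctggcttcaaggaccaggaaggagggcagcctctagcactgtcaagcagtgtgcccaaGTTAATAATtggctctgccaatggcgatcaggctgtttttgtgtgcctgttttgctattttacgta
Ppargc1a promoter: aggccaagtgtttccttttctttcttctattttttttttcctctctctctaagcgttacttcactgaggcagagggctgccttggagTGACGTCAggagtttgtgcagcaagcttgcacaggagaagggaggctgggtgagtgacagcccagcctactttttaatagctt

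The next 3 are regions that ranked higher by −log10 q in every UNx library than in any Sham library, and none was called. They are the upstream region of Ppargc1a (chr5:51568177-51568476, minus strand), a region in an intron of Glud1 (chr14:34311773-34312072, plus strand) and a region upstream of Slc38a3 (chr9:107670309-107670608, minus strand). The Glud1 region was found in UNx only, so it met the 3-list minimum through that group and had to differ. The Slc38a3 window holds a full CRE. None of the 11 strings searched is in the Ppargc1a or the Glud1 window.
Ppargc1a upstream region: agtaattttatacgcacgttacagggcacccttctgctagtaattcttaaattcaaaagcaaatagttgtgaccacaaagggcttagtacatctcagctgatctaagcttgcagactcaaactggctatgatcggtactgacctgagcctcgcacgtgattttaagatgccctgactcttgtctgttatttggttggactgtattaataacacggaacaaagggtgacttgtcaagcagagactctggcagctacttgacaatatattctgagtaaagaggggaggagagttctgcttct
Glud1 intron region: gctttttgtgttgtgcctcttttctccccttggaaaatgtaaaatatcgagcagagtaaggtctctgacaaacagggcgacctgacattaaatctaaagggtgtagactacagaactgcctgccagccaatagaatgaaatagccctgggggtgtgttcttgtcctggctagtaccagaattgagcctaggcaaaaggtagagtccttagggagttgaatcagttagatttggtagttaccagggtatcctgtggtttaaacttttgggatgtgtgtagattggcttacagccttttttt
Slc38a3 upstream region: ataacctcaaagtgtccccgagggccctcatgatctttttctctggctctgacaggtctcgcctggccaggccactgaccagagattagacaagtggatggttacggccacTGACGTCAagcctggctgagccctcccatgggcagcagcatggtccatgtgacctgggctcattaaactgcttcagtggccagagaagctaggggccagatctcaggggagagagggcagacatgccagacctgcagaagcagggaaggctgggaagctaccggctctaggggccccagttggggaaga

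Among the enzymes, the promoter of Pcx, whose product makes oxaloacetate from pyruvate, had the highest rank. Its percentile ranks were 99.6, 99.6 and 98.9 in Sham 1 to 3 and 99.4, 99.9 and 99.2 in UNx 1 to 3, and only 2.32% of the 13203 protein-coding promoters tested had a higher mean rank. The groups overlapped and differed by 0.0995 points (SE 1.15, limma adjusted p = 0.977). A second annotated start of Pcx, inside the gene, had ranks of 91.2, 89.4 and 86.5 in Sham and 83.5, 91.5 and 82.3 in UNx, again overlapping. The clearest difference at this locus was in the other direction and lay 17392 bp before the start (chr19:4492519-4493470, intergenic). This region ranked at 85.1, 86.8 and 82.3 in Sham and at 70.8, 74.0 and 61.4 in UNx. All 3 Sham libraries were above all 3 UNx libraries, by 16 points in the means (84.7 ± 2.26 and 68.7 ± 6.51, SD, n = 3 each), and limma gave an adjusted p of 0.0849. Ranked by fold enrichment, Sham was also above UNx there, at 53.2 ± 8.37 and 33.2 ± 9.24 (SD, n = 3). Inside the gene, 2 intronic regions ranked higher in every UNx library, at 53.9 to 69.8 in Sham and 73.7 to 82.5 in UNx in one and at 47.1 to 51.8 and 61.8 to 66.6 in the other, though both overlapped by fold enrichment. The strongest distal region of the locus, in an intron 23930 bp before the second start, had overlapping groups (69.4 to 83.9 in Sham, 78.7 to 81.7 in UNx).

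Pck1 encodes the enzyme that commits oxaloacetate to glucose synthesis, and its promoter was open in all 6 libraries. Ranks were 75.9, 75.6 and 85.5 in Sham and 84.2, 79.8 and 90.1 in UNx. The groups overlapped through Sham 3, and the difference of 5.68 points (SE 3.84) had a limma adjusted p of 0.448. Ranked by fold enrichment the difference was -0.127. The match ACGTCA, the CRE half-site on the other strand, has its middle 63 bp before the start. Pck1 spans only 6.23 kb (chr2:173153048-173159273), and the regions described next lie beyond its end.

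Of the 11 tested Pck1 regions, 4 (36.4%, beside 12.0% of all tested regions) had every UNx library above every Sham library, all of them downstream. This count includes a region found in UNx only, which met the 3-list minimum through that group and so had to differ. Of the 4, the one of smallest p lay 12032 bp after the start (chr2:173164729-173165681, intergenic), with ranks of 41.0, 76.4 and 52.6 in Sham and 89.7, 82.1 and 81.5 in UNx. The UNx libraries were close together and the Sham libraries spread widely (84.4 ± 4.52 and 56.7 ± 18, SD, n = 3 each), and the limma adjusted p was 0.0631. By fold enrichment the groups overlapped in this region, at 15.5 ± 23.2 in Sham and 29.3 ± 11.9 in UNx (SD, n = 3). A region 18525 bp after the start ranked at 45.4, 28.3 and 53.3 in Sham and 60.8, 54.6 and 78.7 in UNx (limma adjusted p = 0.177). By fold enrichment its groups overlapped, with a difference of 0.727. The strongest distal region, 25085 bp after the start, ranked at 78.3, 59.5 and 83.6 in Sham and 92.1, 92.6 and 84.9 in UNx (limma adjusted p = 0.101), but by fold enrichment the difference was -0.0888.

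With ranks turned into normal scores, the region 12032 bp after the Pck1 start passed the test (limma adjusted p = 0.0227). That setting called 1583 of all 74781 tested regions, beside 589 with percentile ranks. Just outside the 20 kb limit, a region 23641 bp before the Pck1 start (chr2:173128888-173129856) ranked at 79.5, 81.7 and 83.4 in Sham and 94.7, 92.8 and 91.4 in UNx. It rose by 11.4 points with a limma adjusted p of 0.042. Of the 143 regions tested with loci of 50 kb on either side, it was the 1 called, beside 0.788% of all 74781 tested regions. Over 16 alternatives its direction held and its adjusted p by limma ran from 0.0407 to 0.822, with the call kept on normal scores alone (0.822 by fold enrichment, 0.0787 with a replicate block, 0.0783 to 0.175 without 1 library).

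The promoters of Fbp1 and G6pc, the last enzymes on the path to free glucose, did not separate the operations. Fbp1 ranked at 94.9, 91.9 and 86.3 in Sham and 89.4, 91.6 and 94.3 in UNx, a difference of 0.715 points (SE 2.3, limma adjusted p = 0.904). G6pc ranked at 68.3, 73.7 and 73.9 in Sham and 72.9, 69.8 and 79.7 in UNx, a difference of 2.21 points (SE 4.88, limma adjusted p = 0.854). The ranges overlapped at both promoters, and both differences turned negative by fold enrichment, at -5.17 for Fbp1 and -4.16 for G6pc.

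At the Fbp1 locus, promoter regions included, 4 of 9 tested regions (44.4%, beside 12.0% of all tested regions) had all UNx libraries above all Sham libraries and 1 (11.1%, beside 11.7%) had the reverse. The reverse region lies in an intron of the neighbouring gene Fbp2, 31908 bp after the Fbp1 start, and was separate by fold enrichment too. Of the 4, a region also in an Fbp2 intron (31327 bp) and a region in an Fbp1 intron (17520 bp) overlapped by fold enrichment. The strongest distal region of the Fbp1 locus, 5407 bp before the start, ranked at 84.2, 82.9 and 81.8 in Sham and 85.9, 88.1 and 91.5 in UNx (limma adjusted p = 0.284), but by fold enrichment its groups overlapped. One region 29817 bp after the Fbp1 start is also the promoter of its neighbour Fbp2, which encodes the muscle form of the enzyme. It ranked at 68.3, 65.6 and 73.8 in Sham and 76.6, 81.1 and 85.2 in UNx (limma adjusted p = 0.184), and the groups did not overlap by fold enrichment either. At G6pc, all 10 tested regions, the promoter included, had overlapping groups. Its strongest distal region, 27758 bp after the start (chr11:101394648-101395654, intergenic), ranked between 95.7 and 99.3 in the 6 libraries, above the G6pc promoter in each. The G6pc region of smallest p, 11597 bp after the start, had ranks of 69.4 to 84.5 in Sham and 65.6 to 71.8 in UNx (limma adjusted p = 0.421).

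Glud1, the source of ammonium from glutamate, had the promoter of second highest rank among the 8. It shares this region with the start of Shld2, a gene of DNA repair, so the peak cannot be assigned to 1 of the 2. Ranks were 98.4, 99.4 and 97.7 in Sham and 96.4, 95.8 and 94.9 in UNx. Every Sham library was above every UNx library, by 2.83 points in the means (98.5 ± 0.836 and 95.7 ± 0.764, SD, n = 3 each), and the limma adjusted p was 0.273. By fold enrichment the same order held without overlap, with means of 71.5 ± 10.3 and 55.8 ± 6.54 (SD, n = 3 each). Among the 8 main promoter regions it was the one in which Sham was above UNx throughout.

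Next to that promoter, 2 peaks in the first part of the Glud1 gene appeared in the UNx lists and in none of the Sham lists. The nearer, 643 bp after the start (chr14:34311166-34311482), ranked at 21.7, 45.6 and 35.0 in UNx 1 to 3. Among all deposited peaks it was present in 4 lists, so 1 Sham list held it below the 77355 strongest. The farther, 1196 bp after the start (chr14:34311809-34312045, intron), ranked at 41.9, 52.6 and 34.6 and was absent from every Sham list also among all deposited peaks. The authors' fold enrichment was low in both, 2.44 to 3.29 and 2.58 to 3.6, and both were in fewer than 3 lists when the lists were cut by fold enrichment. Farther away, a region 47067 bp after the start and past the end of Glud1 ranked at 77.2, 72.5 and 78.7 in Sham and 88.2, 90.6 and 86.7 in UNx (limma adjusted p = 0.0751). Its groups did not overlap by −log10 q but did by fold enrichment (44.5 ± 2.39 and 48.7 ± 7.13, SD, n = 3 each). At 52549 bp after the start the strongest distal region went the other way, from 92.3 ± 1.32 in Sham to 88.1 ± 2.41 in UNx (SD, n = 3 each; limma adjusted p = 0.298), without overlap by either ranking.

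**Figure D2:**
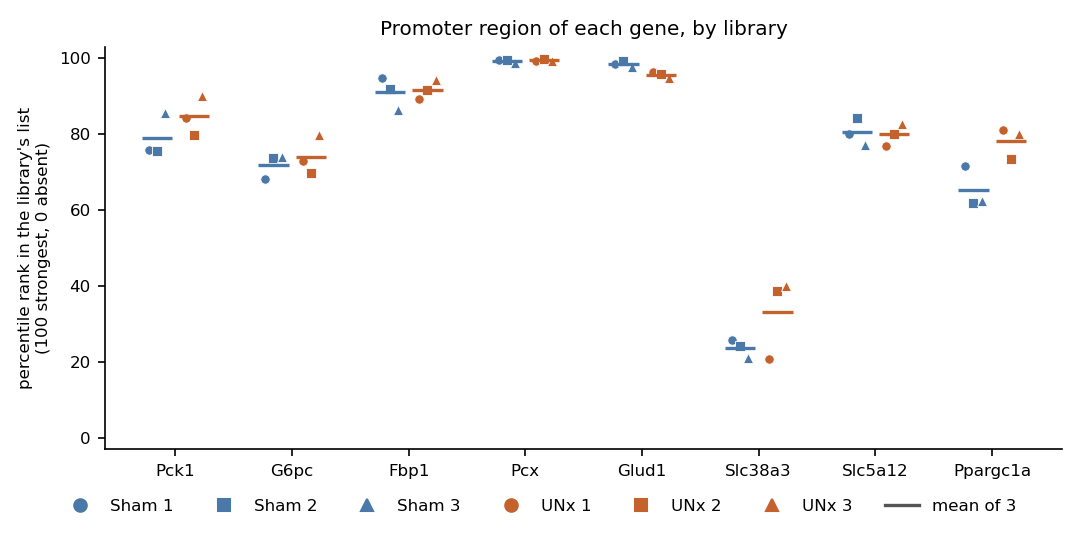
Percentile rank (y axis, 100 for the strongest peak of a list, 0 for an absent one) of the promoter region of each gene (x axis) in each Sham (blue) and UNx (orange) library, with the mean of 3 as a bar. Pcx lies near 100 in all libraries and Slc38a3 below 40, and the operations do not overlap at Glud1 (Sham above) and Ppargc1a (UNx above).

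The 2 carriers that bring substrate into the cell had unlike promoters. Slc5a12, the lactate transporter, ranked at 80.1, 84.3 and 77.3 in Sham and 76.9, 80.2 and 82.8 in UNx, with overlapping groups and a difference of -0.575 points (SE 3.74, limma adjusted p = 0.956). Slc38a3, the glutamine transporter, had the lowest-ranked promoter of the 8, and 93.5% of the 13203 protein-coding promoters had a higher mean rank. Its ranks were 25.8, 24.2 and 21 in Sham and 20.9, 38.6 and 39.9 in UNx. UNx 2 and UNx 3 were above all Sham libraries, UNx 1 was below them, and the difference was 9.45 points (SE 10.6, limma adjusted p = 0.675).

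Around this promoter the Slc38a3 locus had several weak peaks that were found mainly in 1 group. A second promoter region, 789 bp before a start (chr9:107669559-107669950), was absent from the 3 Sham lists and ranked at 21.2, 20.2 and 25.2 in UNx. By fold enrichment it was again absent in Sham and ranked at 20.3, 9.77 and 25.6 in UNx, while 4 of the 6 lists held it among all deposited peaks. The CRE-bearing region shown above, 1491 bp before a start, ranked at 0, 16.3 and 0 in Sham and 25.2, 41.8 and 23.8 in UNx (limma adjusted p = 0.208), and all 6 lists held it among all deposited peaks. By fold enrichment its groups overlapped, at 0, 16.6 and 0.344 in Sham and 13.4, 28.6 and 8.95 in UNx. In the full annotation this region lies 929 bp from a start. The reverse pattern occurred 9361 bp before a start, in an intron of Gnat1 (chr9:107678026-107678428), with ranks of 6.0, 37.4 and 14.9 in Sham and absence from every UNx list. The strongest distal region of the Slc38a3 locus was the promoter of the neighbouring gene Gnai2, an inhibitory G protein subunit, at 99.4 to 99.9 in Sham and 99.8 to 100 in UNx.

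The strongest distal region of Slc5a12, 4847 bp before the start, ranked at 58.4, 56.1 and 55.4 in Sham and 38.9, 39.2 and 50.2 in UNx. Every Sham library was above every UNx library, by −log10 q and by fold enrichment, and the limma adjusted p was 0.358. The Slc5a12 region of smallest p, in an intron 5568 bp after the start, rested on 2 libraries, with ranks of 0, 0 and 8.11 in Sham and 48.8, 0 and 40.0 in UNx (limma adjusted p = 0.226). One more intronic region, 20327 bp after the start, ranked at 5.33 to 25.1 in Sham and 27.4 to 29.9 in UNx (limma adjusted p = 0.588), but by fold enrichment its groups overlapped.

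At Ppargc1a, the coactivator, the operations did not overlap in 7 of 19 tested regions (36.8%, beside 23.7% of all tested regions). The share was higher at Fbp1 (55.6%) and Glud1 (41.7%), though the Glud1 share counts its regions found in UNx only, which had to differ. Its promoter ranked at 71.6, 61.9 and 62.4 in Sham and 81.0, 73.5 and 80.0 in UNx. All UNx libraries were above all Sham libraries, with means of 78.2 ± 4.06 and 65.3 ± 5.45 (SD, n = 3 each). The difference of 12.9 points (SE 5.12) had a limma adjusted p of 0.188, and by fold enrichment the groups overlapped (39.1 ± 5.49 and 32 ± 8.14, SD, n = 3 each). Among the 8 main promoter regions it was the one in which UNx was above Sham throughout. The full CRE in this promoter has its middle 80 bp before the start.

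The upstream region of Ppargc1a, singled out after its values were seen, was 1 of 4 member regions in which UNx was above Sham throughout by both rankings. It lies 14405 bp before the nearest start of the basic annotation (chr5:51567522-51568785) and 601 bp from a start in the full annotation, at the 5′ end of the gene. Its −log10 q ranks were 31.2, 48.9 and 34.4 in Sham and 59.5, 61.3 and 64.6 in UNx. Its fold enrichment ranks were 48.6, 63.6 and 51.2 in Sham and 75.0, 81.4 and 83.1 in UNx. The authors' fold enrichment itself was 7.1, 7.02 and 7.42 in Sham and 9.82, 12.2 and 13.3 in UNx. No library of one operation fell in the range of the other by any of these values. The limma adjusted p was 0.135 by −log10 q (difference 23.6 points, SE 8.09) and 0.169 by fold enrichment (difference 25.4 points), so neither passed the test.

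Within the Ppargc1a gene the regions did not all differ in the same direction. An intronic region 16410 bp after the start (chr5:51537112-51537715), of smallest p at this locus, ranked at 20.1, 30.8 and 37.5 in Sham and 61.4, 47.2 and 67.7 in UNx (limma adjusted p = 0.112). Its groups were also separate by fold enrichment, at 0, 12.9 and 9.45 in Sham and 38.2, 21.5 and 35.8 in UNx. Another intronic region, 8343 bp after the start, had the opposite order, with 83.1, 84.7 and 85.2 in Sham and 77.6, 74.4 and 74.0 in UNx (limma adjusted p = 0.197), and Sham was above UNx by fold enrichment too. In an intron 25886 bp after the start, the strongest distal region overlapped between operations (79.6 to 85.4 in Sham, 81.6 to 89.2 in UNx). Of the 19 tested Ppargc1a regions, 6 had UNx above Sham throughout (31.6%, beside 12.0% of all tested regions) and 1 had Sham above UNx (5.26%, beside 11.7%).

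**Figure D3:**
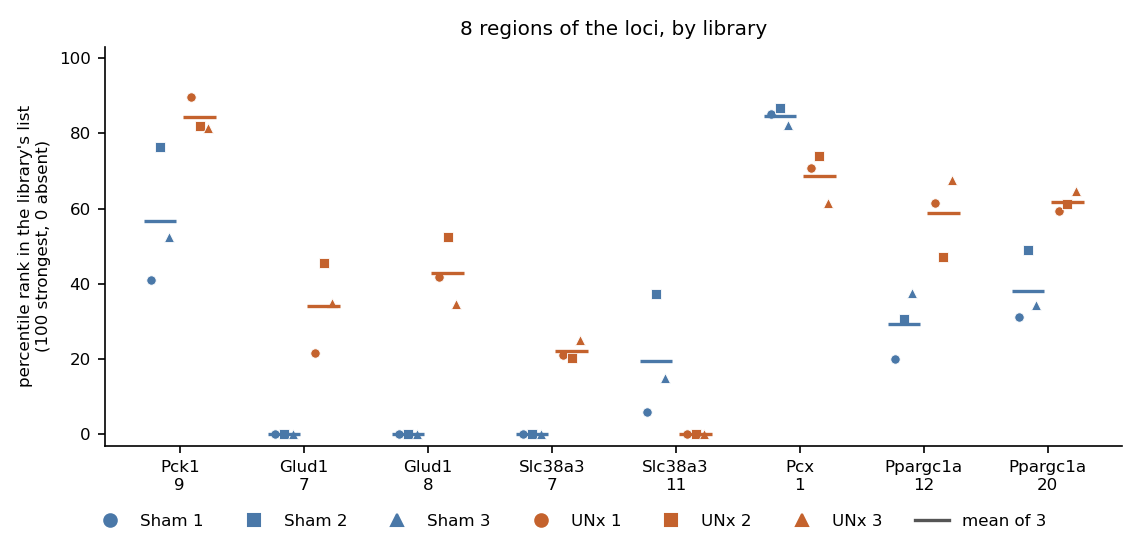
Percentile rank (y axis) in each Sham (blue) and UNx (orange) library, with the mean of 3 as a bar, of 8 regions named by gene and by order along the chromosome (x axis). Glud1 7, Glud1 8 and Slc38a3 7 are at 0 in Sham, Slc38a3 11 is at 0 in UNx, Pcx 1 is lower in UNx, and Ppargc1a 20 is the upstream region.

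The loci differed in how many regions they held and where these lay. Per 10 kb of locus there were 1.63 regions at Ppargc1a and 3.03 at Pck1, with the other genes between. Distal regions sat mostly outside the gene at Pck1 (1 of 13 in the gene body), G6pc (0 of 9) and Slc38a3 (0 of 10), and mostly inside it at Pcx (23 of 28) and Slc5a12 (10 of 16). All 6 lists held 73 of the 138 regions (52.9%, beside 53.4% of all regions), and 25 were in 1 list only. Of those 25, 13 were in UNx 3, 5 in UNx 2, 0 in UNx 1 and 7 in the Sham lists (3, 2 and 2). UNx 3 also held the most single-list regions of the whole series, 23.9% of them.

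**Figure D4:**
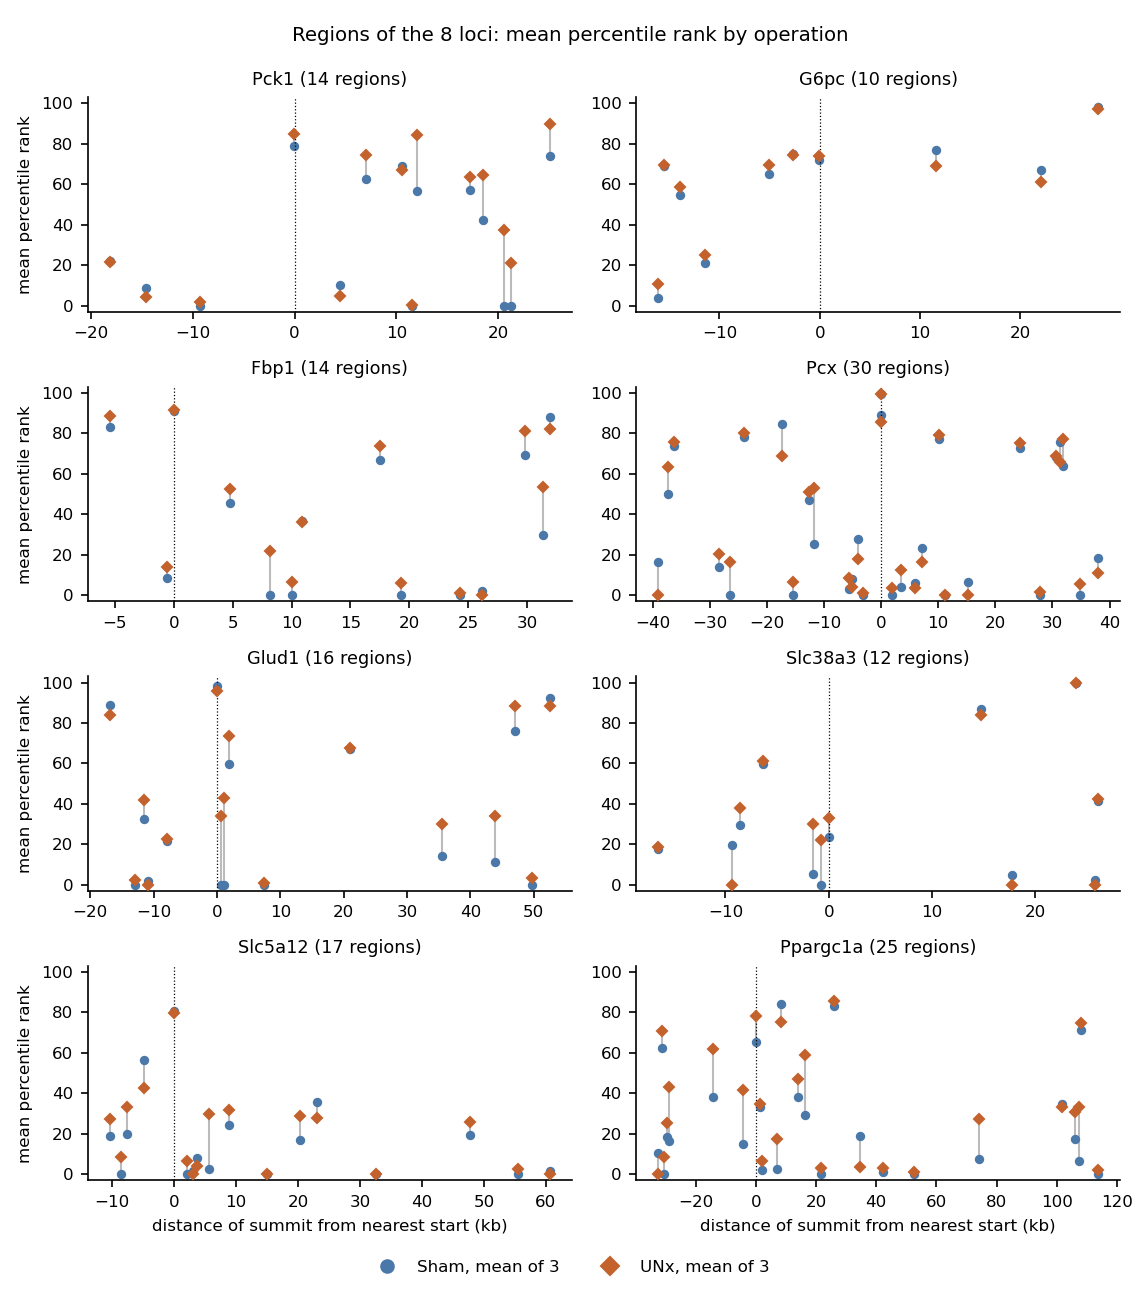
Mean percentile rank (y axis) of each region in the 3 Sham (blue circles) and 3 UNx (orange diamonds) libraries against the distance of its summit from the nearest annotated start of the gene in kb (x axis, negative before the start), 1 panel per gene. Grey lines join the 2 means of a region; long lines are seen beyond the end of Pck1, beside the start of Glud1 and along Ppargc1a, among other places.

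The 2 rankings could be set side by side for 80 of the 97 tested regions. The difference was positive by both in 33, negative by both in 22, positive by −log10 q alone in 24 and positive by fold enrichment alone in 1. Of the 19 followed regions in which UNx was above Sham throughout by −log10 q, 4 were separate in the same direction by fold enrichment: the Fbp2 promoter at the Fbp1 locus, the second promoter region of Slc38a3 (found in UNx only) and 2 regions of Ppargc1a. Of the 7 followed regions in which Sham was above UNx throughout, 6 were separate by fold enrichment too, among them the Glud1 promoter, the region upstream of Pcx and the strongest distal region of Slc5a12. How often all regions were separate under both rankings was not counted. The −log10 q of a peak grows with sequencing depth as well as with its height. The part of depth in the tilt towards UNx was not tested, since the lists hold no counts.

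**Figure D5:**
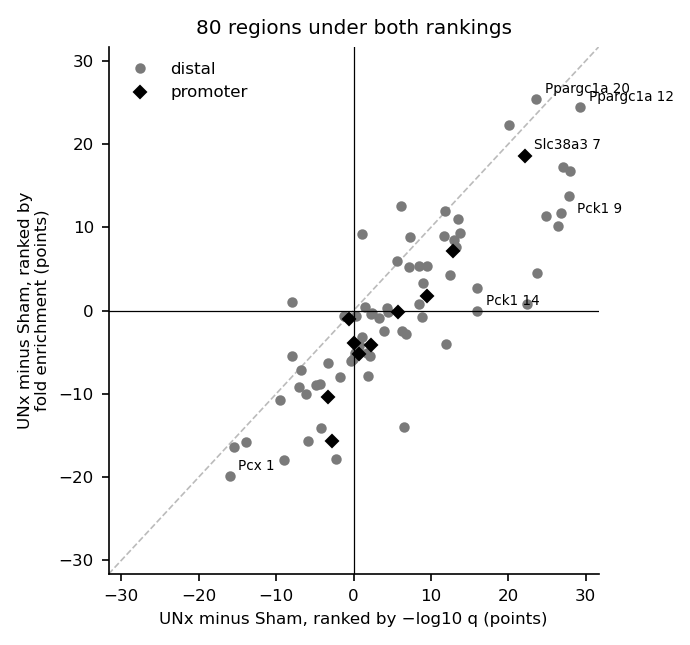
Difference in percentile rank, UNx minus Sham, of 80 member regions with peaks ranked by −log10 q (x axis, percentile points) and by fold enrichment (y axis, percentile points). Grey circles are distal and black diamonds promoter regions, the dashed line marks equal values, and 24 points lie to the right of 0 but below it on the y axis.

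Short consensus strings for families of transcription factors, searched on both strands in 300 bp around each strongest summit, are given with their share of all tested regions. The full CRE, TGACGTCA, was in 3 of the 97 tested regions (3.09%, beside 0.822% of all tested regions), in the Ppargc1a promoter, the upstream region of Slc38a3 and a region at the start of Rce1 in the Pcx locus. The CRE half-site TGACGT, which each full CRE also contains, was in 5 (5.15%, beside 4.64%). The HNF4 string CAAAGTCCA was in 2 (2.06%, beside 2.74%), the HNF1 string GTTAATNAT in 4 (4.12%, beside 3.65%), the FOX string TGTTTAC in 5 (5.15%, beside 3.97%) and the steroid receptor string ACANNNTGT in 7 (7.22%, beside 8.15%). The GC-rich KLF and SP string GGGGCGGGG was in 2 tested regions, the Glud1 and Slc38a3 promoters (2.06%, beside 5.58%). Of the other strings, CAAAGGTCA (PPAR and HNF4 repeat end) was in 2 (2.06%, beside 2.12%), and TCAAGGTCA (ERR), TTGCGCAA (C/EBP) and GCGCATGCG (NRF1) were in 0, beside 0.764%, 0.107% and 0.635%. A match is a run of letters and not evidence of binding.

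Promoters of 78 other genes of these pathways were examined in 4 lists, of which 75 had a promoter region and 74 were tested. Limma called 0 of the 74, and 16 had an unadjusted p under 0.05. Of all 13203 tested protein-coding promoters, limma called 21 as higher and 31 as lower after UNx, and 1740 had an unadjusted p under 0.05. The mean rank was higher after UNx in 32 and lower in 42, while over all 13203 protein-coding promoters it was higher in 6218 and lower in 6985 with a median difference of -0.19 points. Among 22 tested gluconeogenic and linked enzymes, 8 were higher and 14 lower (median -1.59). The smallest p values there belonged to Pdk4, a kinase that restrains pyruvate oxidation, at 94.2 ± 1.8 in Sham and 98.6 ± 0.694 in UNx (SD, n = 3 each; limma adjusted p = 0.13), and Pgk1, a glycolytic enzyme, at 94 ± 2.44 and 87.9 ± 1.09 (limma adjusted p = 0.131). Pdk4 passed the test on normal scores (limma adjusted p = 0.0399), a setting that called 1583 of all 74781 tested regions. By fold enrichment, however, the Pdk4 difference was -2.05 points. Slc37a4, the carrier that feeds glucose-6-phosphatase, had no promoter region.

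Genes of glutamine, ammonia and bicarbonate handling were split, with 11 higher and 10 lower of 21 tested (median 0.00302). Car14, a membrane-bound carbonic anhydrase, ranked at 52.1, 55.6 and 59.7 in Sham and 80.2, 75.7 and 65.7 in UNx (limma adjusted p = 0.132). Slc25a22, a mitochondrial glutamate carrier, ranked at 85.0, 85.1 and 86.0 in Sham and 65.9, 85.4 and 58.0 in UNx, so UNx 2 did not share the lower rank (limma adjusted p = 0.144). Among 8 tested lactate, citrate and glucose carriers, 5 were higher and 3 lower (median 1.09), and the smallest p values belonged to the glucose transporter Slc2a1 (difference 3.45, limma adjusted p = 0.409) and the dicarboxylate transporter Slc13a3 (difference -8.73, limma adjusted p = 0.642). Among 23 regulators, 8 were higher and 15 lower (median -1.48). Ppara, a receptor that governs fatty acid oxidation, ranked at 85.8, 86.0 and 84.2 in Sham and 79.7, 73.3 and 73.4 in UNx (limma adjusted p = 0.16). Nr4a1, an orphan receptor of the immediate early response, ranked at 45.4, 61.2 and 53.6 in Sham and 78, 55.7 and 83.2 in UNx, with overlap through UNx 2 (limma adjusted p = 0.186).

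By Euclidean distance over the 6 percentile ranks, the promoter nearest to each of the 8 among 12065 other protein-coding promoters was Zfp612 for Pck1 (distance 1.96), Pick1 for G6pc (3.48), Tspan5 for Fbp1 (3.48) and Tldc1 for Pcx (0.379). For Glud1 it was Kctd6 (0.921), for Slc38a3 Gm43302 (6.63), for Slc5a12 Abcc4 (3.04) and for Ppargc1a Lrrc63 (6.44).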

How the data were processed

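ATAC-seq libraries of microdissected S1 proximal tubules were used as deposited, 3 Sham and 3 UNx, with 1 narrowPeak list each, so peaks were called per library. Per the submitters' processing notes, the tools named are cutadapt 3.4, Bowtie, SAMtools, Picard and MACS2 2.2.7.1, and the build is mm10; their settings are not given in the sources used here. Each summit in the deposited lists has a ratio called fold enrichment, −log10 values of p and q, and a display score. They were used only to rank or describe peaks within a list. The lists hold no counts, so depth and intervals that need it are unknown.

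Of summits sharing 1 interval the strongest stood for the peak (autosomes, X and Y). Lists were cut to their 77355 strongest peaks by −log10 q. Overlap of at least 1 bp joined intervals into 99359 regions, of which the 74781 present in at least 3 lists were tested on percentile ranks with limma 3.58.1 in R 4.3.3 (robust variance with a trend, two-sided, p adjusted over all of them by Benjamini-Hochberg, threshold 0.05), after a check on simulated ranks. Genes and starts came from the GENCODE M21 basic annotation and sequence from GRCm38, in which no interval passed a chromosome end. The members and lists were chosen with earlier results of these data known. Named were each gene's promoter region, its strongest distal region, its distal region of smallest p, regions in all lists of one operation and none of the other, 2 genes per pathway list, and the nearest promoter pattern; the report also gives regions whose groups did not overlap, chosen after their values were seen. The labels do not say whether equal replicate numbers share a mouse or a day, so no block was used. One region that the rule selects at the Pck1 locus is not reported here.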

Additional observations from a re-analysis of the deposited data

How the results depend on the processing

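Over 54 named regions and promoters, 829 values under alternatives gave 781 with the same direction and side of the threshold, 4 newly past it, 15 no longer past it and 29 reversed, and 42 of the 54 never reversed. Only the region 23641 bp before the Pck1 start was called with percentile ranks. For the others the same side meant staying uncalled, so the 781 say little about stability. All 15 lost calls belong to that Pck1 region, over its 16 alternatives. The number of member regions called, 0 with percentile ranks, was 3 with normal scores (2 of them found in UNx only, so that they met the 3-list minimum through that group) and 1 with loci of 50 kb, and 0 otherwise. Pathway promoters called were 1 with normal scores and 0 otherwise. The 589 calls among all regions became 22 with all deposited peaks, 2 with the 20000 strongest, 180 with a −log10 q of at least 5, 3 by fold enrichment, 143 with 50% reciprocal overlap, 1583 with normal scores, 2 with regions in any number of lists tested, 2 with GC-corrected ranks and 4 to 76 without 1 library (4 without UNx 1, 76 without UNx 2). The share of member regions higher after UNx was 42.4% by fold enrichment (beside 50% of all regions) and 57.7% with the 20000 strongest peaks (beside 48.8%). It was 76.1% with all deposited peaks (beside 60.3%) and 78.4% with a −log10 q of at least 5 (beside 63%). Without 1 library it ran from 59.8% to 74.2%, lowest without UNx 3 (beside 49.4%). The causes were not tested.

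With the replicate block, 56 of all regions and 0 member regions were called, and with the replicate block and GC-corrected ranks 0 of all. Same-numbered libraries had correlations of 0.00819, -0.1 and -0.0496 in their deviations. So few libraries cannot show whether those of equal number were handled together, which the labels do not say.

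Reversed by fold enrichment were the promoters of Pck1 (-0.127), G6pc (-4.16), Fbp1 (-5.17), Pcx (-3.84), Pdk4 (-2.05), Slc2a1 (-0.894) and Slc13a3 (0.561), and the strongest distal regions of Pck1 (-0.0888), Pcx (-5.15), Slc38a3 (-0.684) and Ppargc1a (-0.247). With GC-corrected ranks, with or without the block, the promoters of Fbp1 (-0.385), Pcx (-0.486) and Slc5a12 (1.05) and the strongest distal region of Slc38a3 (-0.351) reversed. The Slc5a12 promoter also reversed with all deposited peaks (0.6) and a −log10 q of at least 5 (1.1). Leaving out 1 library at a time, differences ran from -0.582 (without UNx 3) to 4.38 at the G6pc promoter, from -1.63 (without Sham 3; also -0.565 without UNx 3) to 2.63 at that of Fbp1, from -0.145 (without Sham 3; also -0.0939 without UNx 2) to 0.251 at that of Pcx, from -2.78 (without Sham 2) to 4.45 at the strongest distal region of Pcx, and from -2.22 to 1.29 (without Sham 2; also 0.954 without UNx 1) at the Slc5a12 promoter. A start within 2.5 kb made 19 regions promoters, and the full annotation, added after the data were seen, 17.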
